A study of Drosophila melanogaster with 4 samples.

Results

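The wing imaginal disc of a Drosophila larva is a folded epithelial sac that turns into the adult wing, its hinge and the dorsal thorax. The transcriptome of wild-type wing discs from the third larval instar was described here from a single RNA library, which is 1 of the 4 samples of the study. The expression table listed 15627 named entries for this library, and all of them were used. Wild type meant larvae from a cross of an Act5c-Gal4 stock with itself, reared at 25 °C. The genotype given has the alleles y1 and w* on the X chromosome, and on the second chromosome the transgene P{Act5C-GAL4}25FO1 over CyO, which carries y+. The transgene places the yeast activator GAL4 under an actin promoter active in most cells, and CyO is a balancer, a rearranged chromosome kept to hold the stock. The library was made from total RNA and did not keep the strand, so overlapping genes and antisense partners share reads. The number of discs, the sex of the larvae and the larvae's own balancer status are not given in the labels. The other RNA library of the study, from discs in which the same driver expressed a double-stranded RNA against Polycomb, with the same X-linked alleles and the insertion UAS-dsRNA Polycomb, was used only to ask which entries were detected in both. With 1 library per genotype, no value below has a replicate error and no test was made.

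The disc is divided by selector genes, which give a field of cells its identity. Engrailed marks the posterior and Apterous the dorsal compartment, and signals of the Hedgehog, Dpp, Wingless and Notch pathways spread from the borders between these fields. Vestigial and Scalloped together specify the wing pouch, Homothorax and Teashirt the hinge and proximal parts, and Pannier and the Iroquois genes the notum. The disc also carries myoblasts and a tracheal branch on its basal side, and haemocytes and fat body lie near it in the larva.

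Levels are the authors' deposited FPKM values, which are fragments of a gene divided by the length of its transcript and by the mapped fragments in the library. A gene is called on here at 1 FPKM or more. Of the named entries, 8335 were on (53.3%), 3122 lay above 0 and under 1, and 4170 (26.7%) were listed at exactly 0. After entries were matched to a gene table and entries of the same gene were summed, 7825 of 13355 protein-coding genes were on (58.6%) and 5997 reached 10 FPKM (44.9%). These shares are the background for every gene list below. The median over all protein-coding genes was 5.62 FPKM, and over those that were on it was 24.7 FPKM. Of the 8335 entries that were on, 8035 (96.4%) were also on in the Polycomb RNAi library. The remaining 300 had a median of 1.53 FPKM in wild type, and 202 of them were under 2 FPKM.

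The levels of protein-coding genes fell into separate humps on a log scale. The low hump was highest between 0.178 and 0.316 FPKM, where a bin held 514 genes, and the high hump between 17.8 and 31.6 FPKM, where a bin of the same log width held 1566. Between them the count dropped to 351 genes at 1.78 to 3.16 FPKM, so the threshold of 1 FPKM lay on the low side of the dip. A small group stood apart at the top. The bin from 1000 to 1778 FPKM held 21 genes, and the bins from 1778 to 3162 and from 3162 to 5623 FPKM held 45 and 48.

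**Figure D1:**
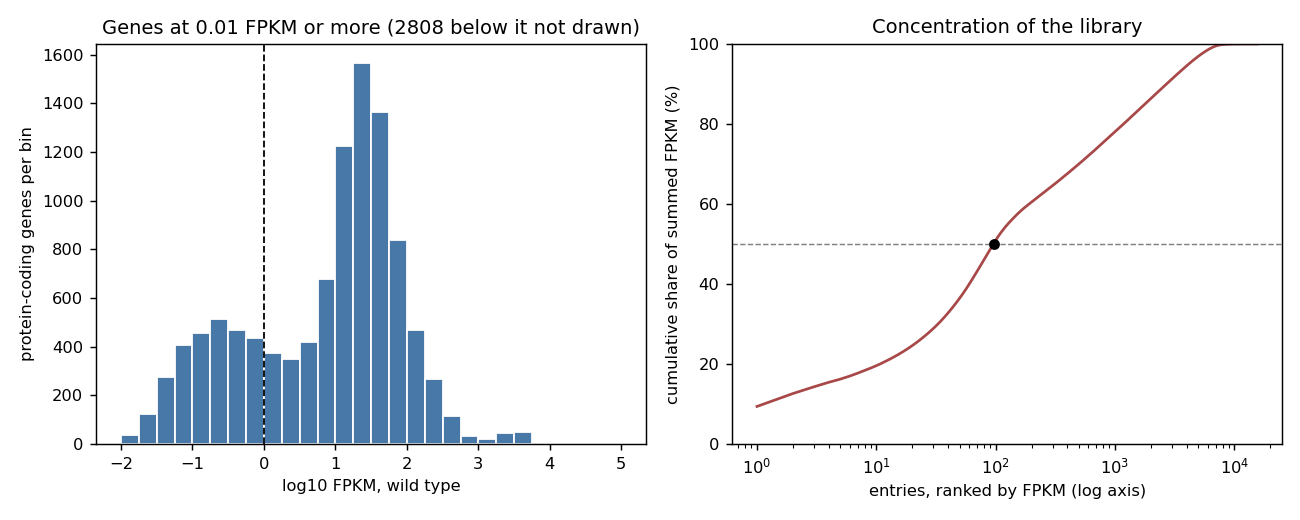
Left, protein-coding genes per bin of log10 FPKM, with a dashed line at 1 FPKM; the 2808 genes below 0.01 FPKM are not drawn. Right, the cumulative share of the summed FPKM over entries ranked from the highest down (log axis), with a dot at the 96 entries that together hold 50% of it.

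The sum was concentrated in few entries. The 10 highest entries held 19.6% of the summed FPKM, the 100 highest 50.9% and the 1000 highest 78.1%. The 96 highest held 50%, and 2704 were needed for 90%. Over protein-coding genes alone, the 10 highest held 12.4% of their sum. The highest entry, CG41421, stood at 86280.5 FPKM and took 9.41% of the sum, and CG41536 was seventh at 6690 FPKM. Neither name matched a single gene in the table used here, so neither is given a class or a role. The other 13 of the 15 highest entries were ribosomal, mitochondrial or cytoskeletal genes and translation factors, with Ip259 at 5128 FPKM as the exception in this grouping.

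Ribosomal protein genes made up most of the top. They numbered 9 of the 15, 41 of the 50 and 75 of the 100 highest protein-coding genes. RpL37a, at 3598 FPKM, was not matched to a single gene and is left out of these counts. RpL41 reached 29555 FPKM, RpL39 15442.5 FPKM, RpS29 6142 FPKM, RpL10 5543 FPKM, RpL38 5348 FPKM, RpL15 4812 FPKM and RpL29 4741 FPKM. RpS3A and RpLP1 followed at 4524 and 4375 FPKM. Together the 91 genes named as cytosolic ribosomal proteins held 32.4% of the summed FPKM, with a median of 3152 FPKM. RpL41 and RpL39 encode the smallest proteins of the ribosome, and FPKM divides by transcript length, so their values depend strongly on the length used.

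The levels within the ribosomal family lay far apart. Of the 91 genes, 84 were on, and 83 of these reached 100 FPKM, the lowest at 109 FPKM. The other one that was on was RpS19b at 3.06 FPKM. RpS5b stood at 0.846 FPKM and RpL22-like at 0.413 FPKM, and RpS28a, RpS28-like, RpS10a, RpL37b and RpL10Aa were listed at 0. Several of these have a close relative at a high level. RpS19a was at 2829 FPKM, RpS5a at 3620.5 FPKM, RpL22 at 1400 FPKM, RpS28b at 3529 FPKM and RpS10b at 2391 FPKM. The pair RpS14a and RpS14b was the most even of the ribosomal pairs examined, with RpS14a holding 66.0% of the sum of both. Near-identical copies can share reads, and no source used here says how such reads were divided.

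Other housekeeping families had lower medians, and their shares on differed. All 71 mitochondrial ribosomal protein genes were on, between 18.2 FPKM (mRpS31) and 216 FPKM (mRpL34), with a median of 43.0 FPKM and 0.406% of the summed FPKM. Of the 34 translation factor genes, 29 were on, and the 5 that were not were the eIF4E variants eIF4E-3, eIF4E-4, eIF4E-5, eIF4E-6 and eIF4E-7. Ef1alpha48D, which delivers aminoacyl-tRNA to the ribosome, was at 7036 FPKM. It held 99.8% of the sum of the elongation factor 1 alpha pair. eIF-5A and Ef2b followed at 3378 and 2328 FPKM. Of the 41 genes named as proteasome subunits, 27 reached 100 FPKM, and Rpt3R at 4.17 FPKM was the only other one that was on. Pros25, Pros35 and Prosalpha5 led at 311, 271 and 267 FPKM. Of the 41, 11 were listed at 0. Of 35 vacuolar ATPase genes 20 were on (57.1%, beside 58.6% of all protein-coding genes), Vha16-1 highest at 345 FPKM.

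The 13 entries of the mitochondrial genome held 3.39% of the summed FPKM. The subunits of cytochrome c oxidase led them, with mt:CoIII at 10359 FPKM, mt:CoI at 7292 FPKM and mt:CoII at 5074.5 FPKM. mt:ND6 stood at 4.85 FPKM and mt:ND4L was listed at 0, although mt:ND1, of the same respiratory complex, was at 890 FPKM.

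The 12 genes often used as expression references ranged from the general transcription factor gene Tbp at 29.9 FPKM and SdhA at 87.4 FPKM to Act5C and Ef1alpha48D.

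Outside the ribosome and the mitochondrion, Ef1alpha48D and Ip259 were the highest, followed by Act5C, alphaTub84B and eIF-5A. Act5C, the main cytoplasmic actin, was at 4541 FPKM and held 78.8% of the sum of the 6 actin genes, followed by Act42A at 1159 FPKM. alphaTub84B at 3669 FPKM and betaTub56D at 3353 FPKM held 96.1% and 95.6% of their tubulin families. The small heat shock gene Hsp23 stood at 3158 FPKM and Hsp27 at 2403 FPKM, beside the constitutive chaperone genes Hsc70-4 at 2296 FPKM and Hsp83 at 1358 FPKM. Of the other heat-inducible genes of this list, Hsp67Ba and Hsp26 were at 161 and 146 FPKM, Hsp68 and Hsp67Bc at 8.70 and 5.82 FPKM, and Hsp70Aa, Hsp70Bb and Hsp70Bc at 0.0220, 0.961 and 0.223 FPKM. The odorant-binding protein gene Obp99b was at 2101 FPKM and the ecdysone-inducible gene ImpE2 at 1860 FPKM, both among the 100 highest protein-coding genes.

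Replication-dependent histones show a limit of the table. Of 110 histone entries, 104 were listed at 0, although the cell cycle genes below were on throughout. The replacement histones were high, with His4r at 2505 FPKM, His2Av at 781 FPKM, His3.3B at 773 FPKM and His3.3A at 351 FPKM. An exact 0 can therefore be a failed estimate or an unused copy, among other causes. Of 25 small nuclear RNA entries, 19 were also listed at 0 and 6 were on. Whether the making of the library lowered some classes of RNA was not tested. Entries at 0 are described only as listed at 0. A further 42 entries lay above 0 and under 0.001 FPKM, down to 5.43e-271, which no fragment count gives. The E(spl) gene HLHm3 at 5.78e-05 FPKM was one of these.

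The labelled tissue was set beside markers of its epithelium. All 8 epithelial markers of the disc were on. Of these, ap is also in the leg and antenna list below, and whether other discs were present was not tested. The wing selectors vg and sd stood at 54.2 and 117 FPKM, nub, a POU-domain factor of the pouch, at 83.5 FPKM, and rn, a zinc-finger factor of the distal wing, at 44.3 FPKM. The dorsal selector ap was at 144 FPKM, the hinge factor hth at 138 FPKM, the notum GATA factor pnr at 17.1 FPKM and the ligand gene wg at 43.0 FPKM. In a whole-disc library, fewer cells that use a gene and less RNA per cell cannot be told apart, which holds for every regional gene below.

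Over the 11 patterning lists, 83 of 114 genes found were on (72.8%), 60 reached 10 FPKM and the median was 14.1 FPKM. The lists for territories of the wing disc and those for other body regions stood far apart. Of 58 genes of the anterior-posterior, dorsal-ventral, pouch, hinge and notum lists, 57 were on, 50 reached 10 FPKM and the median was 37.3 FPKM. Of 38 genes of the Hox, gap, pair-rule and eye and head lists, 13 were on, 5 reached 10 FPKM and the median was 0.402 FPKM. Both sets can be read beside the 58.6% of all protein-coding genes that were on. The lists were chosen with results of this table known, so the contrast is a description.

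Of the 7 symbols listed for the anterior-posterior axis, col was not matched to an entry by name. It is another name of kn, which is given with the pouch factors below. The 6 genes found were all on, within a narrow range but for ci. The posterior selectors en and inv stood at 42.1 and 40.5 FPKM, and hh, the signal that posterior cells send, at 40.1 FPKM. Its receptor gene ptc was at 32.1 FPKM and dpp, the morphogen gene of the border stripe, at 21.5 FPKM. The anterior transcription factor gene ci was higher, at 159 FPKM.

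All 11 dorsal-ventral genes were on. The glycosyltransferase gene fng, which modifies Notch in dorsal cells, was highest at 159 FPKM, followed by ap at 144 FPKM. The adhesion genes trn and caps stood at 89.9 and 29.0 FPKM. The Notch ligand genes Ser and Dl were at 57.9 and 49.0 FPKM, and the cofactor genes of Apterous, Chi and Bx, at 45.4 and 19.7 FPKM. The lowest was ct at 2.86 FPKM, a homeobox gene of the margin and of sensory organs.

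All 16 pouch factors were on and 15 reached 10 FPKM. Below sd, nub and vg, the Dpp target genes salr, bi and salm stood at 43.5, 35.9 and 29.1 FPKM, and brk, the repressor gene that Dpp signalling shuts off, at 39.7 FPKM. The vein and intervein factor genes bs, ab, kni and kn were at 34.0, 37.9, 25.4 and 14.1 FPKM. Dll, a homeobox gene of the distal wing, was at 36.7 FPKM and the zinc-finger cofactor gene nab at 33.6 FPKM. pdm2 at 18.2 FPKM and knrl at 7.33 FPKM were the low partners of nub and kni.

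In the hinge and proximal list 14 of 15 genes were on. exd, the partner of Homothorax in nuclear complexes, was highest at 208 FPKM. The zinc-finger genes tsh, noc and zfh2 were at 86.5, 77.1 and 74.8 FPKM, Dr, a homeobox gene, at 54.6 FPKM, and Sox15 at 41.0 FPKM. dac, better known from the leg and eye, stood at 6.87 FPKM. bab1 at 0.387 FPKM was the only gene of the 58 territory genes under the threshold, while its neighbour and paralogue bab2 was at 11.2 FPKM.

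The notum list was on in full but lower, with a median of 14.97 FPKM. The Iroquois genes mirr, caup and ara led it at 40.4, 40.3 and 39.2 FPKM. Of the factors of the medial and central notum, pnr and its cofactor gene ush were at 17.1 and 14.97 FPKM, the Pax genes eyg and toe at 15.1 and 14.1 FPKM, and the LIM gene tup at 9.58 FPKM. The Bar genes B-H1 and B-H2 of the prescutum and the tendon gene sr were between 2.66 and 3.39 FPKM.

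**Figure D2:**
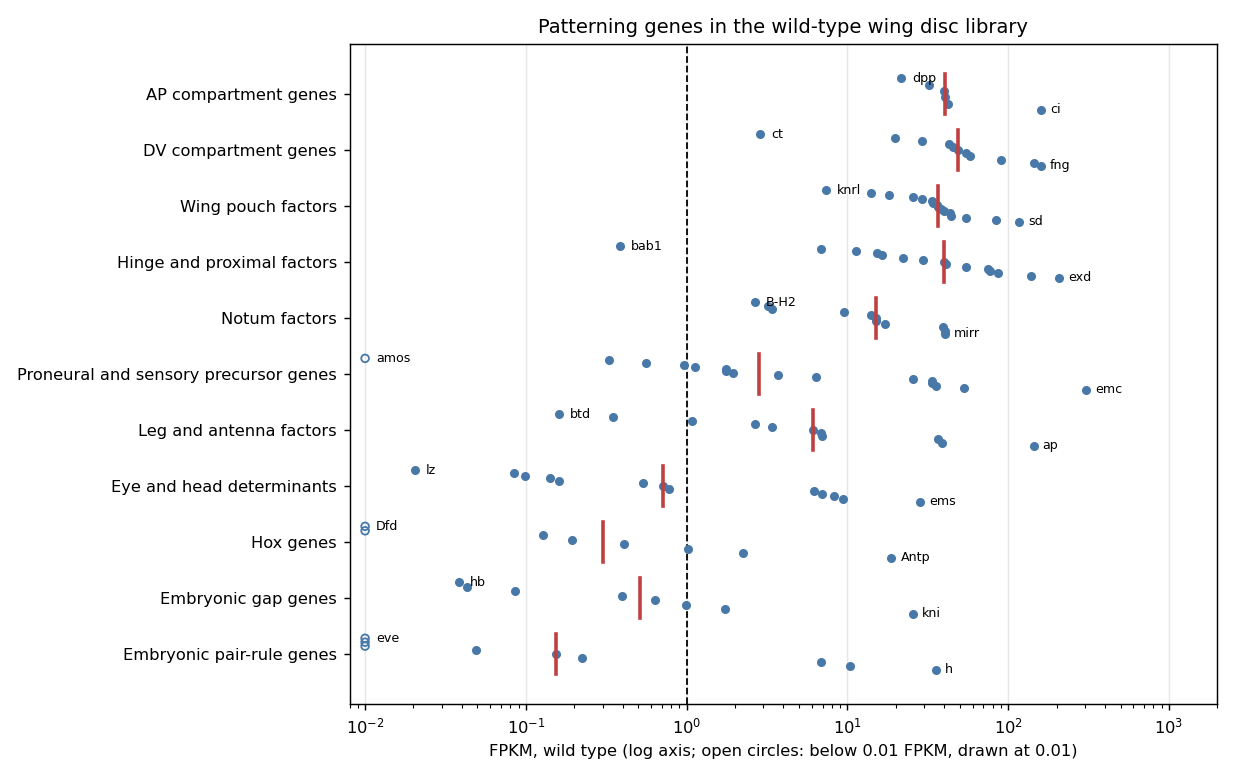
FPKM of every found member of the 11 patterning lists (log axis), 1 dot per gene, with the highest and lowest member named, a red line at the list's median and a dashed line at 1 FPKM. Open circles are genes below 0.01 FPKM. The 5 wing disc lists lie right of the dashed line except for bab1, and the Hox, gap, pair-rule and eye and head lists have medians left of it.

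Paralogues that lie near each other differed in how alike their levels were. The Iroquois group was within 1.03-fold from highest to lowest, en and inv within 1.04-fold, and eyg and toe within 1.07-fold. B-H1 and B-H2 were within 1.27-fold and salm and salr within 1.496-fold. The Dorsocross genes Doc1, Doc3 and Doc2, T-box genes of the hinge, stood at 39.6, 22.1 and 16.4 FPKM. Wider apart were noc and elB with 2.63-fold, kni and knrl with 3.47-fold, nub and pdm2 with 4.59-fold, and tsh and tio with 5.70-fold. bab2 was 29.1-fold over bab1, and ac 35.0-fold over ase, of the achaete-scute complex. In the E(spl) complex HLHmbeta was at 160 FPKM and HLHm3 near 0, so no fold is given. These sets were picked after values had been seen.

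The proneural list was split. The inhibitor gene emc, whose product binds proneural proteins, was at 306 FPKM, the highest of all 114 patterning genes and rank 288 among protein-coding genes. The partner gene da was at 53.4 FPKM and the repressor gene h at 35.4 FPKM. The proneural genes ac and sc stood at 33.6 and 25.5 FPKM, while their relative ase, a neural precursor gene of the same complex, was at 0.961 FPKM. Several genes of selected precursor cells were lower: neur at 6.36 FPKM, sens at 3.70 FPKM, phyl at 1.76 FPKM, pros at 0.559 FPKM and scrt at 0.327 FPKM. In the same list insc and cato were at 1.94 and 1.76 FPKM, but pon stood at 33.3 FPKM, near ac. ato, the proneural gene of chordotonal organs and photoreceptors, was at 1.12 FPKM and amos, which acts in olfactory organs, was listed at 0.

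Of the 8 Hox genes, Antp of the mesothorax stood at 18.8 FPKM. Ubx, which makes the haltere in place of the wing, was at 2.23 FPKM and abd-A at 1.03 FPKM. Scr, Abd-B and lab were between 0.128 and 0.408 FPKM, and pb and Dfd were listed at 0. Antp was the only one of the 8 that reached 10 FPKM.

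Of the 8 gap genes 2 were on and of the 9 pair-rule genes 3. The highest were h at 35.4 FPKM and kni at 25.4 FPKM, which are also known from sensory organs and wing veins. opa and odd stood at 10.4 and 6.81 FPKM. gt was at 1.73 FPKM and Kr at 0.997 FPKM. hb at 0.0385 FPKM, hkb at 0.0431 FPKM and run at 0.0488 FPKM were lower, and eve, ftz and prd were listed at 0.

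Of 13 eye and head determinants 5 were on. ems, a head gap gene, was the highest at 28.5 FPKM, followed by Optix at 9.34 FPKM, eya at 8.22 FPKM, ss at 6.91 FPKM and so at 6.17 FPKM. The Pax6 genes toy and ey, at the top of the eye network, were at 0.715 and 0.532 FPKM, and lz and gl, which act in later eye cells, at 0.0204 and 0.0847 FPKM. The leg and antenna list shares Dll, dac, ap, ss, btd and the Bar genes with lists above, and btd, a head and leg gene, was at 0.161 FPKM. Of its other members, al was at 38.4 FPKM, C15 at 6.09 FPKM, Sp1 at 1.08 FPKM and Lim1 at 0.348 FPKM.

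Signalling genes were on more often than the genes of all 11 patterning lists together, and 17 genes belong to both. The order depends on the lists taken. Of the 58 wing disc territory genes alone, 57 were on (98.3%), at a median of 37.3 FPKM. Of 198 genes found in the 11 pathway lists, 183 were on (92.4%), 165 reached 10 FPKM and the median was 31.9 FPKM. A middle level was common. Between 10 and 100 FPKM lay 148 of the 198 signalling genes (74.7%), 53 of the 114 patterning genes (46.5%) and 4990 of all protein-coding genes (37.4%).

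The roles within pathways differed in how many genes were on. All 55 genes listed as transducers, which include the proteases that cleave Notch, were on and all reached 10 FPKM, between 10.2 FPKM (Dif) and 399 FPKM (arm). Of 25 receptors 24 were on, with a median of 44.8 FPKM, and of 60 modulators 59 were on. Of 26 target genes 25 were on. Of 37 ligands 25 were on (67.6%), 15 reached 10 FPKM (40.5%) and the median was 5.36 FPKM. The share of ligands on was 73.0% at a threshold of 0.5 FPKM and 51.4% at 5 FPKM, against 62.6% and 50.7% of all protein-coding genes.

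**Figure D3:**
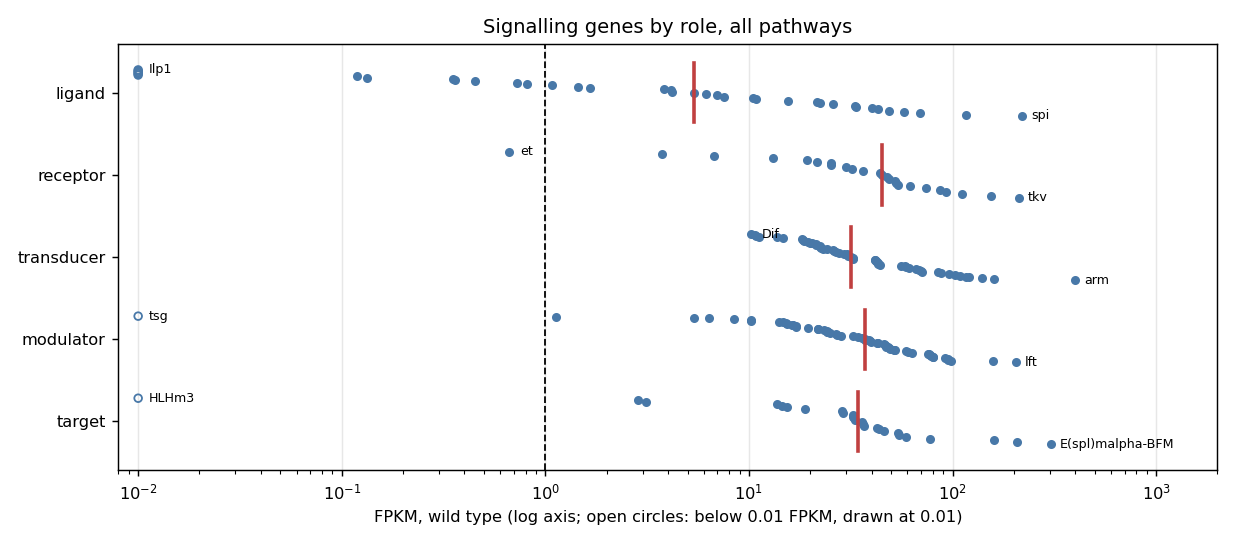
FPKM of every found signalling gene by its role in the pathway (log axis), 1 dot per gene, with the highest and lowest member named, a red line at the median and a dashed line at 1 FPKM. Open circles are genes below 0.01 FPKM. The transducers lie between 10.2 and 399 FPKM, and the ligands spread from a listed 0 to 220 FPKM.

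The highest ligand gene was spi, of the EGF receptor pathway, at 219.6 FPKM, followed by gbb, a BMP that acts with Dpp, at 117 FPKM. ds, the cadherin ligand of Fat, was at 69.0 FPKM. Of the Wnt genes, wg was at 43.0 FPKM, Wnt2 at 33.6 FPKM, Wnt5 at 33.2 FPKM, Wnt6 at 22.2 FPKM and Wnt4 at 4.19 FPKM, while Wnt10 was at 0.361 FPKM and wntD was listed at 0. The 12 ligands under 1 FPKM were Wnt10, wntD, the embryonic BMP gene scw, the cytokine genes upd2 and upd3, and 7 of the 8 insulin-like peptide genes, of which Ilp1, Ilp4 and Ilp7 were listed at 0. Of the insulin-like peptides, which are made mainly by other organs, Ilp6 stood at 6.98 FPKM. Ilp8, the peptide of damaged or overgrown discs, was at 0.724 FPKM.

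In the Notch list 28 of 29 genes were on. The receptor gene N was at 87.0 FPKM and the transcription factor gene Su(H) at 13.7 FPKM. The gamma-secretase genes Psn, pen-2, nct and aph-1, whose products cleave Notch together, lay between 66.0 and 96.3 FPKM. The targets in the E(spl) complex were uneven. E(spl)malpha-BFM was at 304 FPKM and HLHmbeta, a repressor gene widely active in the disc, at 160 FPKM. HLHm7 stood at 54.3 FPKM, HLHmdelta at 33.0 FPKM, E(spl)m8-HLH at 33.0 FPKM, HLHmgamma at 14.6 FPKM and HLHm5 at 3.12 FPKM.

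All 14 Hedgehog genes were on and reached 10 FPKM. The coreceptor gene ihog was highest after ci, at 111 FPKM, with boi at 54.0 FPKM. smo, the signal-transducing receptor gene, stood at 47.5 FPKM and the cytoplasmic regulators Su(fu), cos and fu at 43.9, 29.3 and 21.2 FPKM. disp, needed to release the Hedgehog protein, was at 21.8 FPKM. The glypican genes dally and dlp, which bind several of these ligands, were at 94.6 and 51.4 FPKM.

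In the Dpp list 22 of 24 genes were on. The type I receptor gene tkv was at 212 FPKM and sax at 52.1 FPKM, and the type II receptor genes put and wit at 73.8 and 25.4 FPKM. Mad, the Smad that carries the signal, was at 56.1 FPKM and its inhibitor gene Dad at 46.2 FPKM. The genes for extracellular regulators tok, cv, tld, sog and cv-2 were at 75.5, 34.2, 19.6, 16.2 and 14.6 FPKM. scw and tsg, which act in the dorsal embryo, were listed at 0.

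Of 28 Wingless genes 26 were on. arm, beta-catenin of both the pathway and cell junctions, led at 399 FPKM. Of the receptors, fz2 was at 154 FPKM, arr at 61.5 FPKM, fz at 52.6 FPKM, fz3 at 36.3 FPKM and fz4 at 29.8 FPKM. wls, needed for the release of Wnt proteins, was at 94.8 FPKM, and the kinase gene sgg at 79.9 FPKM.

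All 22 EGFR pathway genes were on. Egfr was at 92.8 FPKM and the cascade genes Ras85D, rl and drk at 139, 109 and 103 FPKM, while phl, the Raf kinase gene, was at 24.2 FPKM. The proteases that release the ligand were low, with rho at 5.38 FPKM and ru at 1.13 FPKM, and the secreted inhibitor gene aos was at 10.2 FPKM. The ligand vn stood at 10.9 FPKM, Krn at 25.96 FPKM and the oocyte ligand grk at 3.81 FPKM.

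The other pathways had medians between 6.46 and 60.03 FPKM. In the JAK-STAT list Stat92E was at 85.0 FPKM and the receptor gene dome at 44.8 FPKM, with the phosphatase gene Ptp61F at 60.7 FPKM, but the ligand gene os was at 5.36 FPKM and the short receptor gene et at 0.663 FPKM. The FGF and PVR list was on in all 10 genes at a median of 6.46 FPKM, the lowest of the 11 pathways, with Pvr at 19.2 FPKM and its ligand genes Pvf2 and Pvf3 at 15.5 and 1.44 FPKM. The FGF receptor genes of this list were lower, htl at 6.74 FPKM, btl at 3.74 FPKM, and the ligand bnl was at 1.08 FPKM. The Hippo and Fat list, on in all 22 genes, had the highest median at 60.03 FPKM. In it lft, a regulator of Fat and Dachsous, was at 205 FPKM, the growth activator gene yki at 61.0 FPKM, the kinase genes hpo and wts at 42.9 and 11.2 FPKM, and kibra at 8.44 FPKM. The insulin receptor gene InR stood at 13.1 FPKM, and the growth genes Akt1 and Rheb at 59.4 and 58.7 FPKM. All 9 TNF and JNK genes were on, with the ligand egr lowest at 7.56 FPKM and the feedback phosphatase gene puc next at 13.7 FPKM. The Jun kinase gene bsk and its target factor gene Jra were the highest of them at 88.0 and 41.8 FPKM. All 8 Toll genes were on as well. The inhibitor gene cact was highest at 63.2 FPKM and the adaptor gene tub next at 42.8 FPKM, and the ligand spz was lowest at 1.65 FPKM.

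Cell cycle genes were on in all 35 cases, at a median of 58.2 FPKM. mus209, which encodes the replication clamp PCNA, was highest at 285 FPKM, followed by cdc2 at 209 FPKM and polo at 202 FPKM. The cyclin genes CycB, CycA, CycD and CycE stood at 154, 132, 41.8 and 28.6 FPKM. stg, the Cdc25 phosphatase gene of somatic cells, was at 58.1 FPKM and twe, its germline counterpart, was the lowest at 4.81 FPKM. Orc2, of the origin recognition complex, was next at 15.8 FPKM. Of 12 cell death genes 9 were on. The inhibitor gene th was at 207 FPKM, while of the genes that antagonise it W was at 49.6 FPKM, rpr at 16.002 FPKM, grim at 0.789 FPKM and skl at 0.492 FPKM. The effector caspase gene Ice was at 56.0 FPKM.

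Of 19 ecdysone response genes 18 were on. The receptor genes EcR and usp stood at 40.9 and 35.5 FPKM. br, an early response gene of the larval to pupal change, was at 272 FPKM, crol at 155 FPKM, Hr39 at 56.7 FPKM, Eip75B at 39.996 FPKM and Eip74EF at 21.0 FPKM. ftz-f1, a gene of the prepupa, was at 4.45 FPKM, and Eip93F, which acts later in metamorphosis, was the one under 1, at 0.108 FPKM. ImpL1 was the next lowest at 1.43 FPKM, beside ImpE2 and ImpE3 at 1860 and 258 FPKM. The juvenile hormone response gene Kr-h1 was at 39.4 FPKM and its receptor gene Met at 5.79 FPKM.

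The epithelial list was on in all 20 genes, at a median of 93.4 FPKM. arm at 399 FPKM, the septate junction genes Fas3 and kune at 290.0 and 225 FPKM and alpha-Cat at 147 FPKM were among the highest, with ATPalpha, a sodium pump gene, level with kune at 225 FPKM. shg, the E-cadherin gene, was at 95.4 FPKM, and the polarity genes crb, sdt and baz were at 59.1, 22.9 and 12.9 FPKM. Of 10 planar polarity genes 9 were on, with Vang highest at 78.3 FPKM and frtz at 11.3 FPKM, and mwh, which limits wing hairs and acts in the pupa, lowest at 0.955 FPKM. The basement membrane genes were mixed. The laminin genes LanB1, LanA and LanB2 were between 71.2 and 96.1 FPKM, the collagen IV genes Cg25C and vkg at 16.2 and 9.70 FPKM, the metalloprotease inhibitor gene Timp at 5.97 FPKM, and Ndg, the nidogen gene, at 0.412 FPKM.

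Markers of the tissues that accompany the disc were present. All 12 myoblast markers were on at a median of 11.97 FPKM, with blow at 64.0 FPKM, Mef2 at 22.9 FPKM, twi at 11.1 FPKM and zfh1 and kirre lowest at 3.35 and 2.43 FPKM. The list summed to 225 FPKM. Of 11 tracheal markers 10 were on. pio and verm were at 271 and 267 FPKM and vvl at 119 FPKM. Lower were trh at 20.7 FPKM, dys at 5.78 FPKM and btl at 3.74 FPKM, and rib was listed at 0. The tracheal list summed to 950.2 FPKM, to which pio and verm gave the largest parts. Some of the listed genes, such as vvl and pio, are also used by epithelia outside the trachea, so the sum does not measure tracheal RNA. Of 12 haemocyte markers 10 were on at a median of 3.24 FPKM, with the scavenger receptor gene crq at 31.7 FPKM, He at 8.72 FPKM and Hml at 2.76 FPKM. gcm was at 0.157 FPKM and gcm2 was listed at 0, and the list summed to 72.0 FPKM. Of 17 contractile muscle genes 14 were on. Tm1, which also has cytoplasmic isoforms, was at 332 FPKM, Act57B, a larval muscle actin gene, at 51.8 FPKM and Mhc, the muscle myosin gene, at 2.45 FPKM. The adult muscle actin genes Act79B and Act88F were at 0.132 and 0.124 FPKM.

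Products of the larval fat body were among the abundant RNAs. The storage protein genes Lsp1gamma, Lsp1beta and Lsp1alpha stood at 1675, 1070.1 and 380 FPKM, and Fbp1 and Fbp2 at 762 and 305 FPKM. Lsp2, of the same list, was lower at 21.2 FPKM. Rfabg, the lipophorin gene, was at 75.7 FPKM, while apoLTP was at 0.810 FPKM and the yolk protein genes Yp1 and Yp2 at 0.0746 and 0.0736 FPKM. Of the 11 fat body markers 7 were on and none was listed at 0, and the list summed to 4291 FPKM. Lsp1gamma stood above each of the 198 signalling genes. The share of fat body in the dissected tissue was not tested.

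The lists for other organs were on in part. The gut markers were on in 4 of 12 cases, the highest being Jon65Aiii and epsilonTry at 2.83 and 2.50 FPKM, and LManVI, Mal-A4 and Npc2e were listed at 0. The germline and testis markers were on in 1 of 13, Mst87F at 1.20 FPKM. Mst84Dc was next at 0.601 FPKM, vas was at 0.179 FPKM, and nos, dj, ocn, Mst84Da, Mst84Db and Mst84Dd were listed at 0. The neural list was on in 6 of 13, with nrv2, a sodium pump gene also used in septate junctions, at 109 FPKM and the neuronal gene elav at 10.8 FPKM and loco, active in glia and elsewhere, at 16.5 FPKM, beside the glial gene repo at 0.146 FPKM and the synaptic gene brp at 0.109 FPKM. Cha, the gene for the enzyme that makes acetylcholine, was the lowest at 0.0182 FPKM. The photoreceptor markers were on in 2 of 10, norpA at 26.5 FPKM and chp at 1.70 FPKM, with ninaE, Rh2, Rh3 and trp listed at 0. The salivary gland list was on in 5 of 10 cases. Its glue genes Sgs7 and Sgs8 stood at 29.6 and 6.88 FPKM and Sgs1 at 0.0480 FPKM, and ng2 was listed at 0. Of the immune peptide genes 3 of 18 were on, Drs at 19.8 FPKM, Def at 9.11 FPKM and Mtk at 1.07 FPKM, and 11 were listed at 0, among them DptB and AttA.

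**Figure D4:**
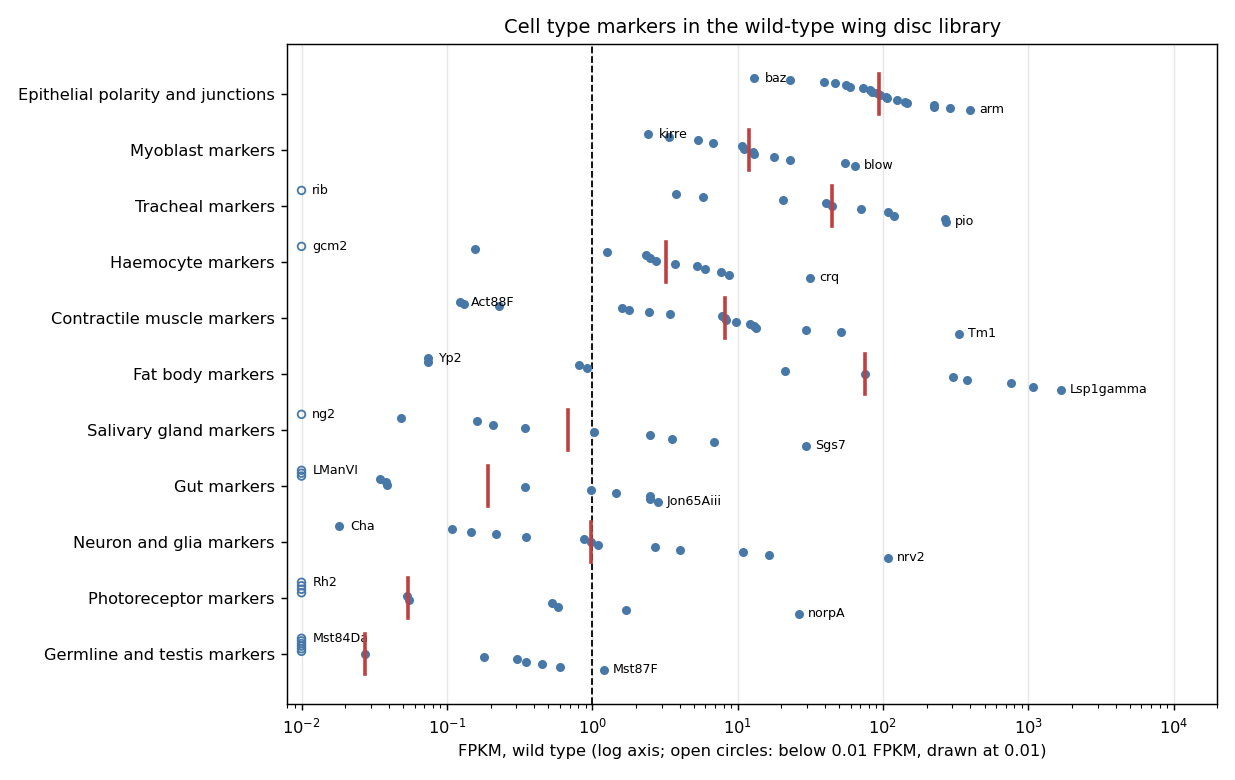
FPKM of every found marker of the disc epithelium, of accompanying tissues and of other organs (log axis), 1 dot per gene, with the highest and lowest member named, a red line at the median and a dashed line at 1 FPKM. Open circles are genes below 0.01 FPKM. The epithelial genes lie between 12.9 and 399 FPKM, the fat body list reaches 1675 FPKM, and the gut list stays at or below 2.83 FPKM.

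Large families of sensory genes had few members on, and most of their entries were listed at 0. Of the odorant receptors 1 of 59 was on, Or43b at 10.6 FPKM, and of the gustatory and ionotropic receptors 3 of 61 and 5 of 57. Listed at 0 were 45 odorant, 46 gustatory and 38 ionotropic receptors. The highest of these were Gr43a at 3.50 FPKM and Ir51b and Ir76a at 7.11 and 6.22 FPKM. The odorant-binding proteins were on in 8 of 43 cases, led by Obp99b at 2101 FPKM, Obp56d at 135 FPKM and Obp99c at 89.3 FPKM. Of 121 cuticle protein genes 37 were on, and Cpr49Ac at 402 FPKM and the larval cuticle genes Lcp4 and Lcp1 at 367 and 270 FPKM were the highest. The pupal cuticle genes Edg78E and Edg84A were listed at 0. Of 81 cytochrome P450 genes 27 were on, with Cyp310a1, Cyp4e2 and Cyp4d1 highest at 37.6, 32.6 and 30.6 FPKM. The glutathione transferase genes GstD1, GstS1 and GstD3 were at 698, 482 and 115 FPKM. Of 24 Osiris genes 3 were on, Osi14 highest at 6.41 FPKM, and of 16 Jonah protease genes 10, Jon65Aiv highest at 4.79 FPKM. Of 17 accessory gland protein genes Acp95EF was on, at 124 FPKM, and of 18 genes with an Mst name Mst85C was the highest at 30.5 FPKM. Of the secreted imaginal disc growth factors, all 6 were on, Idgf4 at 196 FPKM and Idgf6 at 65.3 FPKM being the highest.

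Small RNA entries were mostly listed at 0. Of 280 small nucleolar RNA entries 91 were on and 188 were at 0, and together they held 0.829% of the summed FPKM, led by snoRNA:Psi18S-531 at 936 FPKM. Of 235 microRNA entries 8 were on and 226 were at 0, with mir-4970 highest at 1174 FPKM and mir-4961 next at 949.99 FPKM. Of 25 small nuclear RNA entries 6 were on, snRNA:U12:73B highest at 165 FPKM. These RNAs are short, many lie in introns of host genes, and reads of the host cannot be told apart from theirs. Entries with a CR number, mostly non-coding, were on in 139 of 624 cases, CR40502 highest at 1723 FPKM. Protein-coding genes entered under a CG number were on in 50.4% of 7460 cases, at a median of 1.06 FPKM. Those entered under a name were on in 69.0% of 5895 cases, at a median of 15.7 FPKM. Some genes entered under a CG number have since been named, such as apoLTP and LManVI above.

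The genes of the genotype and of sex could be read as well. w, the pigment transporter gene named as mutant in the genotype, was at 61.5 FPKM. Reads of the allele on the X and of any w copy carried by the transgene cannot be told apart here. y, named as mutant on the X and with a y+ copy on the balancer, was at 0.859 FPKM. roX1 and roX2, the non-coding RNAs that coat the male X chromosome, were at 138 and 70.2 FPKM, and msl-2, whose protein is made in males, at 14.8 FPKM. mof, the acetyltransferase gene of the same complex, was the lowest of the 12 dosage and sex genes at 13.8 FPKM. The female switch gene Sxl, transcribed in both sexes, was at 109 FPKM. All 13 protein-coding genes assigned to the Y chromosome were listed at 0. All 23 genes of the Polycomb and trithorax list were on. Lowest were Su(z)2 at 6.37 FPKM and ash1 at 10.8 FPKM. Highest were the chromatin remodelling gene mor at 106 FPKM and Caf1 at 202 FPKM. Besides genes of these groups, the list holds the histone H4 methyltransferase genes pr-set7 and Hmt4-20, at 33.1 and 41.8 FPKM.

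By chromosome arm, the small chromosome 4 was highest. The share of protein-coding genes on was between 54.5% (2L) and 62.0% (X) on the major arms. On 2L these genes include a run of 85 under 1 FPKM, mostly histone copies listed at 0. Such copies lower the share and the median of 2L and of the autosomes together, by an amount that was not tested. Over all genes, the median was 8.46 FPKM on the X and 4.9996 FPKM on the major autosomes together, from 2.81 FPKM on 2L to 6.64 FPKM on 2R. Over the genes that were on, these medians were 24.2 FPKM on the X and 24.6 FPKM on the major autosomes. On chromosome 4, which is rich in heterochromatin, 62 of 77 genes were on (80.5%), and these had a median of 81.8 FPKM. The highest there were RpS3A at 4524 FPKM, ATPsyn-beta at 1079 FPKM and Arf102F at 289 FPKM, and the chromosome also holds ci, pho, zfh2, lgs and pan.

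**Figure D5:**
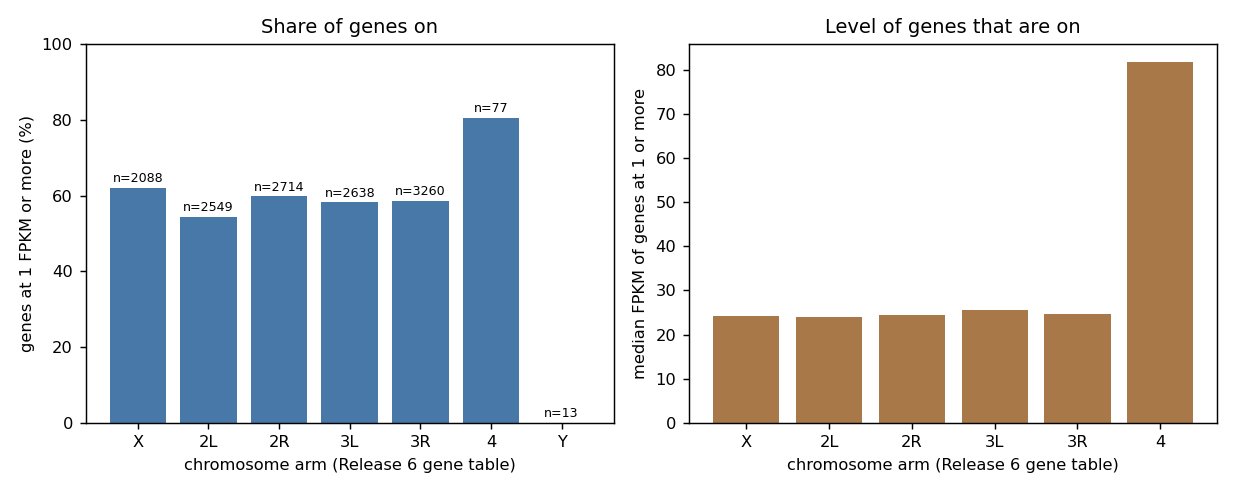
Left, the share of protein-coding genes at 1 FPKM or more per chromosome arm, with the number of genes above each bar. Right, the median FPKM of those genes. Chromosome 4 is the highest in both panels (80.5% and 81.8 FPKM), and no Y gene was on.

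Neighbouring genes had more similar levels than distant ones. The median absolute difference in log2(FPKM + 1) was 1.495 between adjacent protein-coding genes, 1.80 between genes 2 apart, 2.38 at 5 apart and 2.70 at 20 apart. Adjacent genes were on the same side of 1 FPKM in 68.8% of 13244 pairs, and genes 20 apart in 52.4%. The longest run of adjacent genes at 10 FPKM or more held 22 genes on 3L, from CG10657 to Ptp69D, with a median of 36.2 FPKM. The longest run under 1 FPKM held 85 genes and consisted mostly of histone copies listed at 0, and the next longest held 26. Because the library did not keep the strand, neighbours that overlap share reads, and their part in this likeness was not tested.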

How the data were processed

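The authors deposited FPKM values per gene, with 1 column for each RNA library and no counts. Per the submitters' processing notes, the build was dm3 and the tools included TopHat2 2.0.11, Bowtie 1.0.0, Cufflinks, CASAVA 1.4 and SICER. No source used here says which of them made the table, with which annotation, filter or depth. Since the depth is unknown, no counting interval or detection limit is given. A row named only by a dash (0.127% of the sum) was left out.

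Names were matched to a Release 6 gene table by symbol or by a unique synonym, and used only for gene class, chromosome arm and order. Of the 15627 names, 14965 (95.8%) matched a single gene. The 662 others held 12.5% of the summed FPKM. Values were summed over entries of the same gene for counts of protein-coding genes. All values were computed in Python 3.11.15 with pandas 2.3.3 and numpy 2.4.6, and drawn with matplotlib 3.10.9. Of the steps, only the counts and medians of a set of values and the matching of names were tested on simulated data. No threshold other than 1 FPKM defines a gene as on. A pseudocount of 1 was used only for log2 differences and for list means of log2(FPKM + 1).

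The 47 gene lists, with 621 of 626 symbols found, and the rule for named genes (the 15 highest entries and protein-coding genes, the highest 3 members of a family, and members of the lists) were chosen with earlier results of these data known. The paralogue sets, the chromosome arms, the neighbour comparison and corrections to the family names were added after the values had been seen. The H4K20me1 peaks were not used here.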

Additional observations from a re-analysis of the deposited data

How the results depend on the processing

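Alternatives were run for the count of entries on, the entries that hold 50% of the sum, the shares of ribosomal and mitochondrial genes and the shares of patterning and signalling genes on. Each of these kept within 1.5 times its value. The number of entries on was 8335, between 7132 at 5 FPKM and 8941 at 0.5 FPKM. The 96 entries that hold 50% of the sum became 124 without CG41421, and the ribosomal share rose from 32.4% to 35.8%. The share of patterning genes on was between 61.4% and 78.9%, and that of signalling genes between 87.4% and 93.9%. Of 47 list medians, 19 moved by more than 1.5 times when taken from the mean of log2(FPKM + 1) and 17 when genes under 1 FPKM were left out, such as the Hox list (0.301 FPKM, against 0.9899 and 2.23 FPKM). No paired analysis was possible because each genotype has 1 library. The count of promoters with a TATA box and its alternatives were not run. FPKM keeps no counts. Among 659 short, low genes, the product of value and gene length in kilobases was set an edge of 0.07. From 0.07 to 0.08 lay 28 genes and from 0.06 to 0.07 lay 3, while 19 genes in all lay under the edge. If products at the edge are single fragments, the library held about 14300000 mapped fragments or more. The 19 genes under it do not follow that reading, and the estimate was not used for any interval.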
